A study of Mus musculus with 2 samples.

Results

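The genes described here make fatty acids in the liver or control their making: Srebf1, Acly, Acaca, Acacb, Fasn, Elovl6, Scd1, Thrsp, Mid1ip1 and Pnpla3. They were found on the array by the RefSeq accession that its design gives for each probe, which put 15 probes under these 10 genes, out of 20280 named genes on 55681 probes. CREBH KO mice (CREBH null mice on a C57B6J background, lacking the hepatic transcription factor encoded by Creb3l3) were compared with WT C57B6J mice, each after a fast of 24 h or while fed ad lib. Liver total RNA was pooled within each of the 4 groups, and the labels used here give no number of mice per pool. On each of 2 Agilent arrays, 1 fasted and 1 fed, KO RNA carried the dye Cy5 and WT RNA the dye Cy3. Each group is thus 1 pool on 1 array, with no replicate and no dye swap, so a difference of genotype includes any difference between the dyes, and a difference of feeding includes any difference between the arrays. No test was possible, the number of arrays limits the precision, and genes are described by the size of their difference, with 2-fold (1 on the log2 scale) as the line used throughout.

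The liver turns surplus carbohydrate into fatty acids by a chain of cytosolic enzymes. ATP-citrate lyase supplies acetyl-CoA, acetyl-CoA carboxylase makes malonyl-CoA, fatty acid synthase builds palmitate, and an elongase and a desaturase turn it into stearate and oleate. In the fed state insulin raises SREBP-1c, the main hepatic product of Srebf1, which is made as a membrane precursor, escorted from the endoplasmic reticulum by SCAP and released by 2 Golgi proteases, after which it enters the nucleus and switches on this chain. CREBH is also a membrane-bound precursor, is cut by the same proteases, and is known for raising genes of fatty acid oxidation and lipoprotein handling in the fasted liver.

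The promoters of 9 of the 10 genes were read from RefSeq (GRCm38.p6) as the 250 bases before each listed start, 11 windows in all. The windows of Srebf1, Fasn, Thrsp and Mid1ip1 are shown because these genes had the 4 lowest fasting differences of the group in WT liver, and because SREBP-1 is known to act with NF-Y, which binds CCAAT, and with Sp1, which binds GC boxes. Capitals mark every match, on either strand, to CCAAT, to GGGCGG or to GGTTACTNG, the core of the element bound by the nuclear receptor LXR, an activator of Srebf1. Srebf1 lies on the minus strand at chr11:60210472-60210721, 1 of its 3 windows. This window alone held all 3 motifs. The Srebf1 window at chr11:60220628-60220877 held GGGCGG alone, and that at chr11:60222582-60222831 held CCAAT alone. Fasn lies on the minus strand at chr11:120824548-120824797, Thrsp on the minus strand at chr7:97417551-97417800, and Mid1ip1 on the plus strand at chrX:10717115-10717364.
Srebf1: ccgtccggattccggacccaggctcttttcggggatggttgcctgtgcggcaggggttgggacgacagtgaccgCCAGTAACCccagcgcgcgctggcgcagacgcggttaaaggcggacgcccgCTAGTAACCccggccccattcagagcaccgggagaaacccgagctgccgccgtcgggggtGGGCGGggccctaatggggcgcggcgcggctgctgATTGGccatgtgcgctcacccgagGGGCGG
Fasn: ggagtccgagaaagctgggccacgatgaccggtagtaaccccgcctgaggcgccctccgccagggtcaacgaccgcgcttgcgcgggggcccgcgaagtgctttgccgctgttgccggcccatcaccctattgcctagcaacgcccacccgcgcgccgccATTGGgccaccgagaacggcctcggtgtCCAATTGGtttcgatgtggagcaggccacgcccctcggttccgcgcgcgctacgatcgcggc
Thrsp: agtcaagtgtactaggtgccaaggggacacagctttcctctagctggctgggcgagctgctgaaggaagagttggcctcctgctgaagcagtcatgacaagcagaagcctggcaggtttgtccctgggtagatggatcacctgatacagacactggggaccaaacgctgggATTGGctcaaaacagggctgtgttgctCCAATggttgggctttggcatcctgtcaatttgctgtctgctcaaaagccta
Mid1ip1: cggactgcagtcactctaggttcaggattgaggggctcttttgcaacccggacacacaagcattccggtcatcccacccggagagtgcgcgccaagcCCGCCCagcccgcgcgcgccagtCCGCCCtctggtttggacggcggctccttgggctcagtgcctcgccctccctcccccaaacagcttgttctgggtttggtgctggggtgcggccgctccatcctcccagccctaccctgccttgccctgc
The Srebf1 window held 2 matches to the LXR element core, beginning 176 and 125 bases before the start. The motif was found in 0.514% of 32851 mouse windows of this length and in none of the other 10 windows of these genes. The Fasn window holds gtagtaacc, whose complement differs from the motif only in the last letter and was not counted. The motif was added after the windows had been read, so neither its presence here nor its absence from the other windows is a test. In the Fasn window CCAAT or its complement began 90, 62 and 59 bases before the start, the last pair overlapping, and in the Thrsp window 79 and 52 bases before it. The Mid1ip1 window held GGGCGG at 153 and 130 bases before its start. CCAAT was in 6 of the 11 windows, for 5 of the 9 genes (Acacb, Fasn, Pnpla3, Srebf1 and Thrsp), and in 33.8% of all windows. GGGCGG was in 5 of the 11 windows, for 4 of the 9 genes (Acly, Mid1ip1, Pnpla3 and Srebf1), and in 32.7% of all windows. The classical sterol element TCACNCCAC was in 0 of the 9 genes' windows and in 1.05% of all windows, and the E-box CACGTG in 0 of the 9 and in 6.02%. These are matches of letters in short windows, and they say nothing of binding.

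The quality of the measurement was read from spots, since there was no replicate pool. Across probes printed 10 times per array, the median spot-to-spot SD of a log2 ratio of KO over WT was 0.078 on the fasted array and 0.085 on the fed array, and that of a fasted over fed difference was 0.079 in KO and 0.076 in WT. This spread is technical and leaves out variation between mice. Probes counted as measured where at least 50% of their spots were well above background in each channel compared, and levels are log2 intensities, background-corrected with an added offset of 50 units and normalized by loess within arrays and by average intensity between them. Creb3l3, the gene targeted in the KO, was 4.21-fold lower in KO than in WT on the fasted array (log2 -2.07) and 1.84-fold lower on the fed array (log2 -0.88), although centring each array on the median of all its spots turned the fed value to 0.31. Its probe still gave signal in both KO pools (12.95 fasted and 13.11 fed, against 15.03 in WT fasted and 13.99 in WT fed), and the labels do not say whether that probe lies in the deleted part. The 6 hepatocyte markers were well above background in all 4 pools, and their summed signal ran between 629076 and 718037 units. Of 5 adipocyte markers Adipoq, Lep, Plin1 and Retn were well above background in no pool, and Cfd in the WT pools alone.

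All 9 of the genes measured in every pool had lower signal after fasting, by at least 2-fold in both genotypes. Their median difference of fasted over fed was -2.82 in KO livers and -2.86 in WT livers on the log2 scale, against medians of 0.001 in KO and -0.004 in WT over all genes measured. Among all measured genes, 2.14% were at least 2-fold lower after fasting in KO (252 of 11782) and 2.05% in WT (234 of 11438), while 2.42% in KO and 2.28% in WT were at least 2-fold higher, which none of the 9 was. Fewer cells of a type and less RNA per cell cannot be told apart in such pools. The summed signal of sinusoidal endothelial markers was 10126 in KO fasted and 9600 in WT fasted, against 6269 in KO fed and 6614 in WT fed, with all 6 markers higher after fasting in both genotypes, and the part of cell composition in the lipogenic differences was not tested. All 7 Kupffer cell markers were higher after fasting in KO (median 0.49, summed signal 15801 fasted and 11712 fed) and 3 of 7 in WT (median -0.05, summed signal 15023 fasted and 16028 fed). Leaving out the normalization between arrays raised the median fasting difference of all genes by 0.44 in KO and 0.46 in WT, and left the 9 genes below 0 in both, with Acacb in KO just inside 2-fold at -0.99. Without it 1163 genes were 2-fold higher and 80 lower after fasting in KO, against 285 and 252 with it, and 1079 and 71 in WT, against 261 and 234. With median centring over all spots the splits were 257 and 374 in KO and 280 and 162 in WT.

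**Figure D1:**
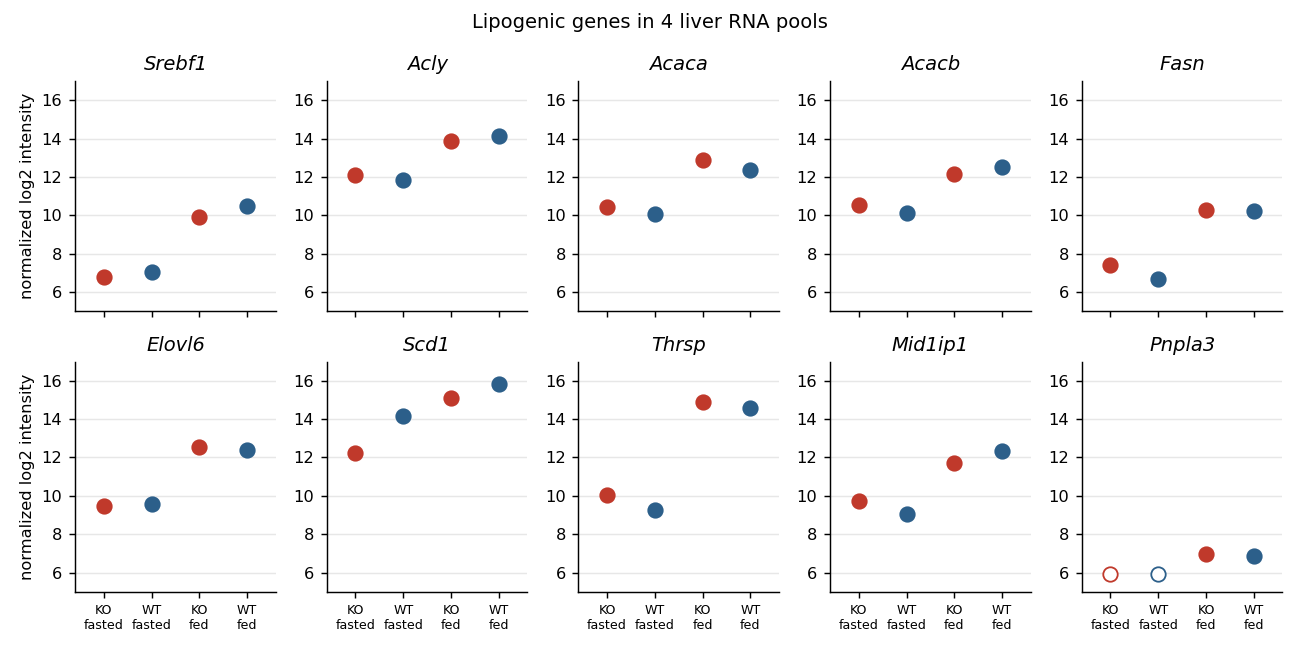
Normalized log2 intensity (vertical axis) of each lipogenic gene in the 4 liver RNA pools, KO in red and WT in blue, fasted at left and fed at right of each panel; open points were not well above background. In all 9 genes measured in every pool both fasted pools lay below both fed pools.

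Srebf1, the gene of the regulator itself, gave 6.81 in KO fasted and 7.04 in WT fasted, against 9.90 in KO fed and 10.50 in WT fed, as normalized log2 intensity. It was 8.51-fold lower after fasting in KO (log2 -3.09) and 11-fold lower in WT (log2 -3.46). Both fasted pools were thus far below both fed pools, and Srebf1 ranked 8 from the lowest of all measured genes in KO and 6 in WT. In the scanner's processed signals, made without the added offset, its differences were -4.11 in KO and -4.32 in WT.

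Acly, ATP-citrate lyase, gave 12.08 in KO fasted and 11.86 in WT fasted, against 13.88 in KO fed and 14.14 in WT fed. The difference of fasted over fed was -1.80 in KO and -2.28 in WT by this probe, and -1.50 in KO and -1.75 in WT by its other probe. Both probes placed the fasted pools below the fed ones, with the larger size in WT.

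Acaca encodes the cytosolic acetyl-CoA carboxylase that feeds fatty acid synthesis, and gave 10.44 in KO fasted and 10.05 in WT fasted, against 12.88 in KO fed and 12.39 in WT fed. It was 5.42-fold lower after fasting in KO and 5.04-fold lower in WT. Acacb encodes the mitochondrial form, whose malonyl-CoA restrains fatty acid entry into mitochondria, and gave 10.52 in KO fasted and 10.11 in WT fasted, against 12.13 in KO fed and 12.53 in WT fed. It was 3.05-fold lower after fasting in KO and 5.37-fold lower in WT. By these probes the fold was nearly the same in both genotypes for Acaca and smaller in KO for Acacb. The second Acaca probe differed, being 3.85-fold lower after fasting in KO and 2.94-fold lower in WT. The second Acacb probe also had the smaller fold in KO, at 3.78-fold lower in KO and 4.37-fold lower in WT. Both second probes were dim in the fasted pools, near the lowest signals called above background, which limits their folds. A further Acaca probe was not well above background in the fasted pools.

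Fasn, fatty acid synthase, gave 7.43 in KO fasted and 6.67 in WT fasted, against 10.25 in KO fed and 10.24 in WT fed. It was 7.08-fold lower after fasting in KO (log2 -2.82) and 11.9-fold lower in WT (log2 -3.57). The fed pools were level with each other, and the fasted WT pool was the lowest, within 1 log2 unit of the dimmest signals called above background in that channel (6.07). In the scanner's processed signals the Fasn differences were -3.58 in KO and -5.08 in WT. Elovl6, which elongates palmitate to stearate, gave 9.46 in KO fasted and 9.55 in WT fasted, against 12.56 in KO fed and 12.41 in WT fed. It was 8.59-fold lower after fasting in KO and 7.27-fold lower in WT, and its 4 levels formed a fasted pair and a fed pair with little distance inside either.

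Scd1, the main hepatic stearoyl-CoA desaturase, gave 12.26 in KO fasted and 14.18 in WT fasted, against 15.12 in KO fed and 15.83 in WT fed. It was 7.3-fold lower after fasting in KO (log2 -2.87) and 3.14-fold lower in WT (log2 -1.65). Here the KO fasted pool stood alone at the bottom. In WT, Scd1 had the smallest fasting difference of the 9 genes, ranking 60 from the lowest of all measured genes, and in KO it ranked 10.

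Thrsp, a small nuclear and cytosolic protein that raises lipogenesis in response to thyroid hormone and carbohydrate, gave 10.06 in KO fasted and 9.24 in WT fasted, against 14.88 in KO fed and 14.56 in WT fed. It was 28.2-fold lower after fasting in KO (log2 -4.82) and 40-fold lower in WT (log2 -5.32). No other measured gene had a lower fasted over fed difference in either genotype. Mid1ip1, the relative of Thrsp that promotes the assembly of acetyl-CoA carboxylase into active filaments, gave 9.71 in KO fasted and 9.04 in WT fasted, against 11.73 in KO fed and 12.33 in WT fed. It was 4.05-fold lower after fasting in KO (log2 -2.02) and 9.81-fold lower in WT (log2 -3.29).

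Pnpla3, a lipid droplet protein of the patatin-like family and a known target of SREBP-1c, was well above background in the fed pools, at 6.95 in KO and 6.87 in WT, and in neither fasted pool (5.90 in KO and 5.94 in WT). An estimate follows from the fed signal over the higher of the probe's own fasted signal and the lowest signal called above background in that channel. By it, the fasted level was 1.87-fold lower than the fed level in KO and 1.74-fold lower in WT. Signals above that lowest one were not always called above background, as for the Scd4 probe in the fasted pools (6.20 in KO and 6.24 in WT). These folds are therefore not firm lower limits. Its other probe was well above background in no pool.

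**Figure D2:**
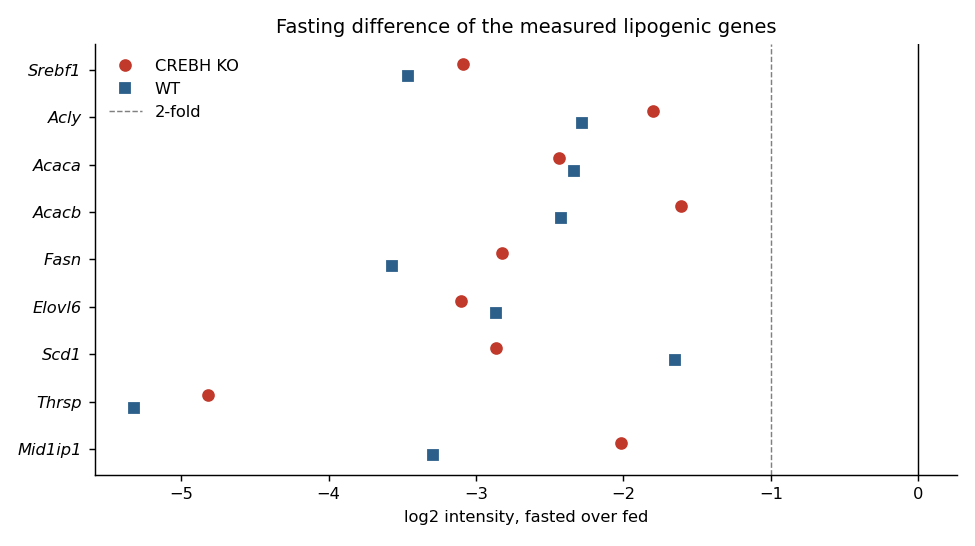
Log2 difference of fasted over fed (horizontal axis) for the 9 lipogenic genes measured in all pools, red circles for KO and blue squares for WT, 1 pool each; the dashed line marks 2-fold. All points lie left of 2-fold, with Thrsp furthest at -4.82 in KO and -5.32 in WT, and Scd1 and Mid1ip1 have the widest gaps between genotypes.

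Genotype differences were smaller than both fasting differences for every lipogenic gene measured in all pools but Scd1. In the fasted pools 1 of 9 genes, Scd1, was at least 2-fold apart, being 3.8-fold lower in KO (log2 -1.93 with a scanner error of 0.27, ranking 12 from the lowest of 12259 genes). Among all genes 0.432% were at least 2-fold lower and 0.359% at least 2-fold higher in KO fasted than in WT fasted. The median of the 9 genes was 0.39 against 0.01 over all genes, with 6 above 0 and 3 below, and it stayed above 0 under the 11 other processing choices, between 0.12 and 1.10.

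On the fasted array the genes with the highest ratios were Thrsp at 0.82 (1.77-fold), Fasn at 0.76 (1.7-fold) and Mid1ip1 at 0.67 (1.59-fold), at ranks 71, 90 and 113 from the highest. Each probe had 1 spot, with a scanner error of 0.22 for Thrsp, 0.26 for Fasn and 0.21 for Mid1ip1. These errors were larger than the median spot-to-spot SD of 0.078. Each ratio exceeded its error and none reached 2-fold. The Fasn value moved with the handling of dim signal: it was 1.03 with a smaller offset and 1.55 both in the scanner's own processed signals and in the authors' value table. Acacb at 0.42, Acaca at 0.39 and Acly at 0.22 were also above 0. On the same array second probes of the 3 genes all lay below 0, at -0.08 for Acacb, -0.15 for Acaca and -0.01 for Acly. These second probes were dim there, between 6.19 and 6.66, against lowest signals called above background of 6.045 in KO and 6.072 in WT. The scanner's own ratios for them were -0.26 for Acacb, -0.26 for Acaca and 0.22 for Acly, with errors of 0.24, 0.375 and 0.28. Elovl6 at -0.09 and Srebf1 at -0.23 were below 0, and both turned positive, to 0.59 and 0.07, with median centring over all spots. With centring on measured spots Elovl6 was also positive, at 0.09, while Srebf1 was -0.42.

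On the fed array 0 of 10 genes was at least 2-fold apart, where 0.396% of all genes were lower and 0.158% higher in KO by that size. Scd1 had the lowest value at -0.71, followed by Srebf1 at -0.61 and Mid1ip1 at -0.61, and Acaca had the highest at 0.49 (scanner errors of 0.21 for all 4). Acacb read -0.40, Acly -0.26, Thrsp 0.32, Elovl6 0.15, Pnpla3 0.08 and Fasn 0.02. The 5 genes below 0 all turned positive with median centring over all spots (Srebf1 0.36, Acacb 0.71, Acly 0.97, Scd1 0.63 and Mid1ip1 0.48), which raised the median of all genes by 0.76 on this array and by 0.56 on the fasted one. Under that centring 3113 genes were at least 2-fold higher and 9 lower in KO on the fed array, against 18 and 45 here, and 941 and 16 on the fasted array, against 44 and 53. With centring on measured spots the splits were 112 and 41 fed and 107 and 39 fasted. The signs of these 5 fed differences therefore depend on the normalization within arrays. On the fed array all 7 Kupffer cell markers read lower in KO, with a median of -0.32 that turned to 0.52 with centring on all spots. Their summed signal was 11712 in KO and 16028 in WT, and their part in these values was not tested.

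**Figure D3:**
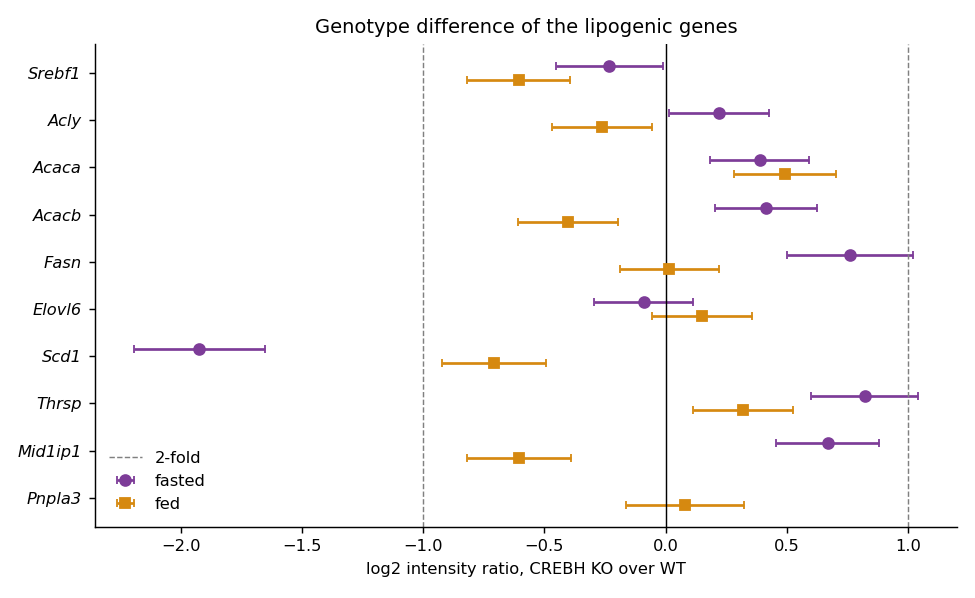
Log2 ratio of KO over WT (horizontal axis) for each lipogenic gene, purple circles on the fasted array and orange squares on the fed array; bars are the scanner software's error of each ratio and dashed lines mark 2-fold. Scd1 on the fasted array, at -1.93, is the only point beyond 2-fold.

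The fasted ratio of KO over WT minus the fed ratio asks whether the fasting difference was of the same size in both genotypes. It was at least 2-fold in 1 gene each way. Mid1ip1 read 1.27, ranking 53 from the highest of 11287 genes: KO was above WT in the fasted pools (0.67) and below it in the fed ones (-0.61, or 0.48 with centring on all spots). Scd1 read -1.22, ranking 44 from the lowest: KO was below WT in both states and further below in the fasted one, although the fed ratio was 0.63 with centring on all spots. Over all genes 0.771% were at least 2-fold higher and 0.611% lower on this measure. The other values were Acacb 0.82, Fasn 0.75, Thrsp 0.50, Acly 0.48, Srebf1 0.37, Acaca -0.11 and Elovl6 -0.24, with a median of 0.48 for the 9 genes and -0.005 for all genes. Centring on the median of all spots lowered the median of all genes by 0.17 (66 genes then 2-fold higher and 125 lower, against 87 and 69), brought Mid1ip1 to 0.86, and turned Srebf1 to -0.28 and Thrsp to -0.09. Fasn ran from 0.12 with that centring to 1.5 in the authors' value table, and passed 2-fold in 4 of 11 other processing choices. All 7 Kupffer cell markers were above 0 on this measure too, with a median of 0.54, and their part in it was not tested.

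Among 18 genes that control SREBP-1, of which 18 were measured in KO and 17 in WT, 2 were at least 2-fold lower after fasting in each genotype and none was higher. These were Insig1, which holds the SCAP escort complex in the endoplasmic reticulum and is itself an SREBP target (-1.53 in KO and -2.57 in WT), and Mlxipl, which encodes the carbohydrate-responsive factor ChREBP (-1.57 in KO and -1.10 in WT). Without normalization between arrays both were inside 2-fold in KO (-0.96 each) and Mlxipl in WT (-0.49), and Mlxipl in WT was also inside it with centring on all spots. The list's median was 0.06 in KO and -0.04 in WT. Between genotypes in the fasted pools Insig1 was 1.25 higher in KO on the log2 scale, the only one of 18 at 2-fold, and its fasted minus fed difference of ratios was 1.05, or 0.65 at the lowest processing choice. On the fed array 0 of 17 reached 2-fold, the furthest being Usf2, an E-box factor, at 0.49. The list's median ratio of KO over WT was -0.002 on the fasted array and -0.004 on the fed array.

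Other targets of the lipogenic programme, a list of 19 with the enzymes that supply NADPH, shared the fasting difference in part. Of 18 measured, 9 in KO and 8 in WT were at least 2-fold lower after fasting and none higher, with medians of -0.92 in KO and -0.74 in WT. In KO the furthest were Angptl8, a feeding-induced hepatokine (-3.25), Me1 and Pgd, which make NADPH, and Aacs, an acetoacetyl-CoA synthetase (-1.49 each for the last 3). In WT they were Angptl8 (-3.36), Aacs (-2.37), G6pdx, which opens the pentose phosphate route (-2.09), and Acss2, an acetyl-CoA synthetase (-2.06). Without normalization between arrays 1 of 18 reached 2-fold in KO. Between genotypes in the fasted pools 2 of 18 were at least 2-fold lower in KO, Fads2 (-1.94) and Elovl5 (-1.86), a desaturase and an elongase of polyunsaturated fatty acids, none was higher, and the list's median was 0.07. With the scanner's processed signals 2 of the 18 were higher, as were 88 of all 12259 genes measured, against 44 with the normalization used here. On the fed array 0 of 19 reached 2-fold, the furthest being G6pdx at -0.90, which was -1.12 in the authors' value table and thus 1 gene lower by 2-fold there. With centring on all spots 6 of the 19 were at least 2-fold higher in KO, as were 3113 of all 11374 genes measured. The list's median of -0.24 turned to 0.72. The fasted minus fed difference of ratios passed 2-fold upward for G6pdx (1.08, or 0.71 at the lowest processing choice) and downward for Fads2 (-1.58) and Elovl5 (-1.42).

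**Figure D4:**
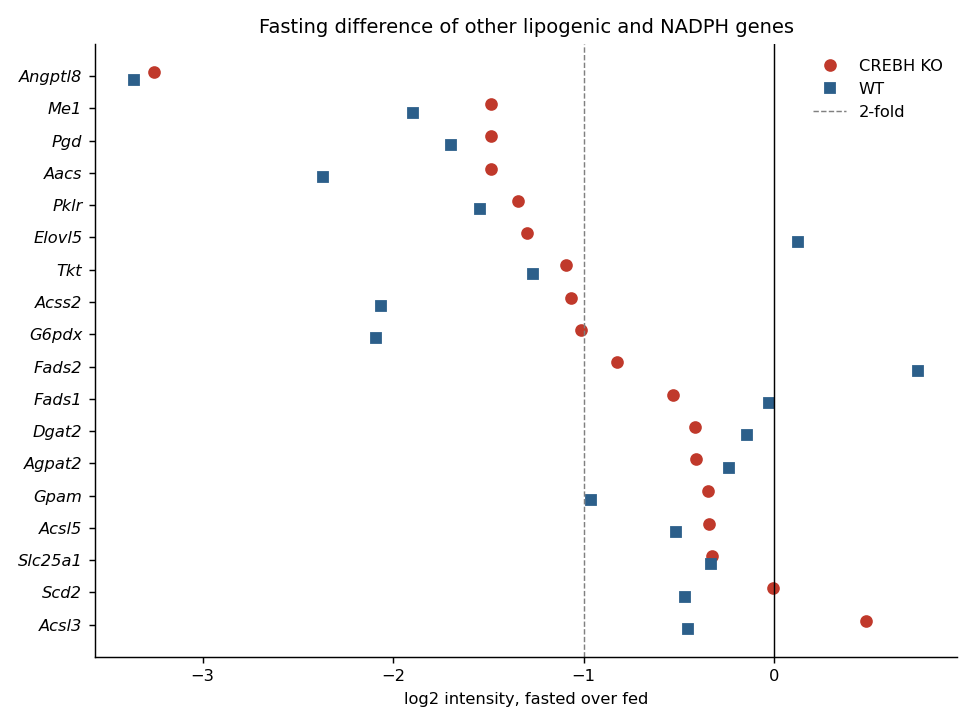
Log2 difference of fasted over fed (horizontal axis) for the 18 measured other lipogenic and NADPH genes, red circles for KO and blue squares for WT, 1 pool each; the dashed line marks 2-fold. In KO 9 and in WT 8 lie beyond 2-fold below, while Fads2 and Elovl5 stand below 0 in KO and above it in WT.

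The elongase, desaturase and patatin-like relatives of these genes were a list of 11, of which 7 were measured in all pools, with median fasting differences of -1.30 in KO and -0.47 in WT. Scd3, a near-identical relative whose probe may share signal with Scd1, read -2.54 in KO and -2.22 in WT as fasted over fed. In KO, 3 further genes were at least 2-fold lower after fasting: Elovl2 (-1.86), Elovl3 (-1.72) and Elovl5 (-1.30), the first and the last of which elongate polyunsaturated fatty acids. Pnpla2, the main triglyceride lipase of adipose tissue and liver, read 1.28 in KO and 1.17 in WT. In the fasted pools Elovl2 (-2.57), Elovl5 (-1.86) and Scd3 (-1.0) were at least 2-fold lower in KO than in WT, of 7 measured. The measured desaturases of this list, Scd3 and Scd2, lay on opposite sides of 0 there, with Scd2 at 0.22. Scd3 ran from -1.97 to -0.37 over the other processing choices. Its probe was dim in the KO fasted pool, at 6.33 against a lowest signal called above background of 6.045. The list's median on this array was -0.22, turning to 0.57 with centring on all spots. On the fed array none of 8 reached 2-fold, Scd3 being furthest at -0.68 and turning to 0.19 with centring on all spots. On the difference of ratios Elovl2 (-2.23) and Elovl5 (-1.42) passed 2-fold downward.

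No signalling gene on the lists upstream of the pathway differed by 2-fold in any comparison with the normalization used here. With centring on all spots 2 of 9 AMPK genes and 7 of 12 insulin genes passed 2-fold upward in fed KO against fed WT. So did 3113 of all 11374 genes measured. Without normalization between arrays 2 AMPK genes in each genotype and 3 insulin genes in WT were at least 2-fold higher after fasting. Over all genes 1163 of 11782 in KO and 1079 of 11438 in WT were. In the scanner's processed signals Trib3 in WT and Pik3r1 in KO (-1.13) passed 2-fold with fasting. Over all genes in those signals 409 of 11438 in WT were at least 2-fold higher and 523 of 11782 in KO at least 2-fold lower. For the 9 genes of AMPK, the kinase that inactivates acetyl-CoA carboxylase, and of malonyl-CoA removal, the furthest fasting differences were Mlycd, malonyl-CoA decarboxylase, in KO (0.74) and Trib3, a pseudokinase, in WT (0.91). For 12 of 13 insulin signalling genes they were Pik3r1, a regulatory subunit of phosphoinositide 3-kinase, at -0.86 in KO and -0.62 in WT. Between genotypes the furthest were Trib3 (-0.31) and Foxo1 (-0.52), the insulin-restrained transcription factor, in the fasted pools, and Prkag2 (-0.56), an AMPK subunit, and Irs1 (0.37), an insulin receptor substrate, in the fed pools. Trib3, Foxo1 and Prkag2 turned to 0.39, 0.20 and 0.32 with centring on all spots. The fasted minus fed difference of ratios was furthest for Foxo1 (-0.76) and Trib3 (-0.58). Median fasting differences were 0.23 in KO and 0.12 in WT for the AMPK list, and -0.20 in KO and -0.02 in WT for the insulin list, whose values turned positive without normalization between arrays.

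The pattern over the 4 pools was compared with that of every other gene measured in all of them, as the Euclidean distance between log2 intensities centred on each gene's own mean. Nearest to the mean of the 9 lipogenic genes were Fabp5, a fatty acid binding protein (0.34), Cyp2c70, a bile acid hydroxylase (0.48), Hsd3b5, a steroid dehydrogenase (0.49), Angptl8 (0.58) and Car3, a carbonic anhydrase (0.58). For scale, the members' own distances from that mean ran from 0.29 for Elovl6 to 1.61 for Scd1 and 2.28 for Thrsp. Nearest to Srebf1 was Angptl8 at 0.14, followed by Gsta1 (0.49), Cyp2c70 (0.63), Hsd3b5 (0.73) and Gm10639 (0.80). As fasted over fed, Fabp5 read -2.83 in KO and -2.82 in WT on the log2 scale, and Angptl8 read -3.25 in KO and -3.36 in WT. These are likenesses over 4 pools that share 2 arrays.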

How the data were processed

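The authors deposited Agilent Feature Extraction scanner output (version 10.10.1.1, per the file headers), with median spot and local background intensity per dye, a log10 ratio of red over green with its error, and flags for signal above background. Their value table holds log2 ratios that matched the deposited scanner log10 ratio to within 0.005 on the log2 scale, with no further centring (median 0 on each array). Channels were assigned per the labels, with KO in Cy5 and WT in Cy3, so ratios run KO over WT. Both arrays shared 1 slide and 1 scan.

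From the scanner intensities, limma 3.58.1 in R 4.3.3 was used for normexp background correction with an offset of 50, loess within arrays on 59305 gene spots per array, and Aquantile between arrays; control spots and outlier spots (197 fasted and 216 fed) were left out, and 0 gene spots were saturated. The offset makes fold differences of dim genes smaller. Spots of a probe were averaged and the brightest probe stood for a gene. Probes were named through RefSeq gene tables by accession, 26756 of 55681. With 1 pool per group there are 0 residual degrees of freedom, so no p-value is given. The normalization was run on simulated data with known ratios on bright spots and a smooth dye trend. That run did not cover dim signals or the choice between loess and median centring. Genes named from each pathway list were up to 4 furthest from 0 among those at least 2-fold apart, or the 1 furthest where none was; the 5 nearest genes were named by distance. The LXR element was added after the promoter windows had been read. Members, lists and tests were chosen with earlier results of these data known. Alternatives changed the centring, background correction, offset, signal, normalization between arrays, probe rule, outlier spots, filter on dim probes, or used the authors' value table. 1 gene of the list of other lipogenic targets is not reported here, and the list's values leave it out.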

Additional observations from a re-analysis of the deposited data

Results flagged for a closer look

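In 4 lipogenic genes the ratio of KO over WT lay on opposite sides of 0 on the fasted and the fed array, and this difference was not tested. Mid1ip1 read 0.67 fasted and -0.61 fed, a difference of 1.27 on the log2 scale. Acacb read 0.42 fasted and -0.40 fed, a difference of 0.82, but its other probe read -0.08 fasted and -0.29 fed. Acly read 0.22 fasted and -0.26 fed, a difference of 0.48, but its other probe read -0.01 fasted and -0.27 fed. The other probes of Acacb and Acly were dim in the fasted pools, near the lowest signals called above background. Elovl6 read -0.09 fasted and 0.15 fed, a difference of -0.24. With median centring over all spots none of the 4 had opposite signs, since Mid1ip1, Acacb and Acly were then above 0 on the fed array and Elovl6 on the fasted one.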

How the results depend on the processing

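The count of 9 lipogenic genes at least 2-fold lower after fasting held in WT under 10 alternatives, and in KO under 9 of 10, with 8 genes without normalization between arrays. Between genotypes on the fed array the count was 0, against 3 with median centring over all spots (Acaca 1.63, Elovl6 1.27 and Thrsp 1.60). On the fasted array it was 1, against 7 with that centring (6 higher and 1 lower in KO), 2 with centring on measured spots (Thrsp 1.01 added), and 2 with no background correction, an offset of 16, the scanner's processed signals or the authors' value table (Fasn added in each). For the difference of ratios it was 2, against 1 with centring on all spots and 3 (Fasn added) with no background correction, an offset of 16, the scanner's processed signals or the authors' value table. Centring on all spots sets the median of all spots to 0, dim spots included, in place of the loess fit. It moved ratios by unlike amounts: on the fasted array Fasn went from 0.76 to 1.10 and Acly from 0.22 to 1.05. Centring on measured spots moved fed Pnpla3 from 0.08 to -0.295 and fed Acaca from 0.49 to 0.91. Over the alternatives Scd1 on the fasted array ran from -1.96 to -1.01. No value of 2-fold or more turned its sign. Of the single-gene values, 96 of 99 kept their sign on the fasted array, 100 of 110 on the fed array, and 90 of 90 for fasting in each genotype. No paired analysis was possible because each group is 1 pool, and for the same reason no replicate could be left out. Signals near background limit Pnpla3, and in the fasted pools Fasn, Srebf1, Scd3 in KO and the second probes of Acaca, Acacb and Acly. No value here covers the spread between mice.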
